A study of Mus musculus with 5 samples.

Results

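The receptors of 4 hormones were followed through the juvenile mouse ovary: Fshr (follicle-stimulating hormone receptor), Lhcgr (luteinizing hormone receptor), Prlr (prolactin receptor) and Ghr (growth hormone receptor). They were chosen by name, and all 4 of the 31053 features measured were found in every library. Untreated C57BL6/J mice gave the ovaries, at an age of 2, 3, 4, 5 or 6 wk. The tissue was dissociated with trypsin, live cells were sorted, and messenger RNA was read at its 3′ end in single cells, with unique molecular identifiers (UMIs) that count each captured molecule once. Each age had 1 library. The libraries held 9471, 9253, 11077, 7779 and 10583 cells, with median depths of 9056 to 12424 UMIs per cell. Because each age had 1 library, differences between ages have no replicate check, and their intervals cover counting error only. Cell groups were compared within libraries, with the 5 libraries as replicates. The labels do not give the number of animals behind a library, so those p-values measure the spread between these 5 libraries, which also differ in age.

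The receptors belong to 2 families. FSHR and LHCGR are G protein-coupled receptors with a large leucine-rich outer domain, and both signal mainly through cyclic AMP and protein kinase A. Pituitary FSH acts on granulosa cells, the cells that surround the oocyte, and drives them to grow and to make aromatase and inhibin. Pituitary LH acts on theca cells, which make androgen, and on the granulosa cells of large antral follicles, where it triggers ovulation. PRLR and GHR are single-pass cytokine receptors that signal through the kinase JAK2 and the transcription factor STAT5. Prolactin is known for its part in the corpus luteum of rodents, and growth hormone for raising insulin-like growth factor 1.

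On the mouse genome build GRCm38, Fshr lies on the minus strand at chr17:88984952-89200675 and Lhcgr on the same strand at chr17:88716481-88791990. Prlr lies on the plus strand at chr15:10177238-10349180 and Ghr on the minus strand at chr15:3317760-3583492. All 4 are protein-coding. Of the 15339 exonic bases of Prlr, 203 are shared with the predicted gene Gm21973, which had 0 UMIs. The following stretches are the 250 bases before annotated starts of each gene, from RefSeq on GRCm38.p6, written 5′ to 3′ on the strand of the gene. They are shown because the 4 genes differ both in where their RNA was found and in these letters. Capitals mark matches, on either strand, to the motifs searched. The E-box, where upstream stimulatory factors can bind, was searched as CACGTG. The GC box, a site for the factor SP1, was searched as GGGCGG. The TATA element, which places the start of transcription in many genes, was searched as TATAAA. The half-site for factors that respond to cyclic AMP was searched as TGACG. The STAT5 site was searched as TTCNNNGAA. The half-site for steroidogenic factor 1, a nuclear receptor of steroid-making cells, was searched as AAGGTCA.
Fshr, chr17:89200676-89200925, minus strand: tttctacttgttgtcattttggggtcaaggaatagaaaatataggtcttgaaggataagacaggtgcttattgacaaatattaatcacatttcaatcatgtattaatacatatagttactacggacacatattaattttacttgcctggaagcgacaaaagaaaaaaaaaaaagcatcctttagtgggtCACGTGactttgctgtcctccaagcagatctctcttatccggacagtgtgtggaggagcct
Lhcgr, chr17:88792015-88792264, minus strand: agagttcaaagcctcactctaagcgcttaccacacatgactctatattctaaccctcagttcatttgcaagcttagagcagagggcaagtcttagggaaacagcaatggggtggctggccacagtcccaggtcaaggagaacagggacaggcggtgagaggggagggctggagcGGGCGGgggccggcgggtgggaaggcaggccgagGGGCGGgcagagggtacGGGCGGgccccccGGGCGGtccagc
Prlr, chr15:10223656-10223905, plus strand: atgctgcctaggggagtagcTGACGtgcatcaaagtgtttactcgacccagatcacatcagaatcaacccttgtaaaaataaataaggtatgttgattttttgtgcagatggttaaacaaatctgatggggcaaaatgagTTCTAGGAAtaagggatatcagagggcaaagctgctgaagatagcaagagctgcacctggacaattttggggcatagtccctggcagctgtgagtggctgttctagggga
Ghr, chr15:3583353-3583602, minus strand: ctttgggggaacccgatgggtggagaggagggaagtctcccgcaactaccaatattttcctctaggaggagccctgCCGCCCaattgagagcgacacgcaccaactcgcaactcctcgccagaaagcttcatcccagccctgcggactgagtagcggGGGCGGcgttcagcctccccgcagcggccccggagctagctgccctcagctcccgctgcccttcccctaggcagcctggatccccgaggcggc
The Fshr stretch was AT-rich (36.8% G or C) and held 1 E-box, at 61 bases before the start, a motif found in 6.02% of 32851 promoters of this length. The Lhcgr stretch (63.2% G or C) held 4 GC boxes, at 76, 42, 25 and 12 bases before the start, and 32.7% of promoters held at least 1. The Prlr stretch held a cyclic AMP half-site (in 17.8% of promoters) and a STAT5 match (7.02%), and 2 other annotated Prlr starts held none of the motifs searched. The Ghr stretch held 2 GC boxes, and another annotated Ghr start held a TATA element (12.4% of promoters). The steroidogenic factor 1 half-site, present in 4.08% of promoters, was in none of the stretches of the 4 genes. These are matches of letters, not measured binding sites.

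Cells were clustered with the 4 receptors left out of the genes used, and clusters were named from marker genes other than the receptors, so every name below stands for "granulosa-like", "theca-like" and so on. The names and the receptor levels still come from the same cells. Of the 48163 cells, 37755 fell into 26 named groups. Granulosa cells formed primordial, preantral (primary and secondary follicle markers together), 3 antral, 3 remodeling and 2 cycling groups. The antral groups were an estrogenic type with aromatase, a Slc38a5 type and a Vpreb3 type. The remodeling groups, which carry markers of follicles in atresia, were an Agt, a Lox and a Pamr1 type. Mesenchymal cells formed steroidogenic theca (1492 cells, with Cyp17a1 and Cyp11a1), early theca (2216 cells, with Hhip and Mest), 5 stromal types, 2 smooth muscle types and dividing cells. Of the early theca cells, 529 were in a cluster led by DNA replication genes such as Cdc6 and Mcm3, so this group also holds cycling cells. The stromal types are named Cd24a, Cxcl12, Sfrp1, Hoxd9 and Pi16 after a marker. The remaining 10408 cells, in clusters of low UMIs, doublets or unclear markers, held 7.45% (Lhcgr) to 13.5% (Ghr) of a receptor's UMIs.

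In all, 2833 UMIs of Fshr, 3720 of Lhcgr, 31194 of Prlr and 27923 of Ghr were counted. The 4 receptors did not all have the same main site, and Lhcgr and Prlr shared theirs. Fshr was found in granulosa cells (90.3% of its UMIs in the granulosa class), Lhcgr in steroidogenic theca (73.4%), and Prlr in steroidogenic theca (37.7%). Several stromal groups and the estrogenic antral type came behind it in Prlr level. The 5 wk library held 600 steroidogenic theca cells, against 148 to 301 in the others, and the highest Lhcgr and Prlr levels in them. The pooled shares in steroidogenic theca therefore lean to 5 wk. Ghr was split between the granulosa class (46.8%) and the stromal class (33.7%), with its highest level in the Lox type of remodeling granulosa. The unit of a level is CPM, which scales a gene's UMIs to 1000000 UMIs of the cell group, summed over the cells of a library. A mean ± SD is over the 5 libraries unless another n is given, so it holds age as well as technical spread. Levels are compared between cell groups for a gene, never between genes.

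**Figure D1:**
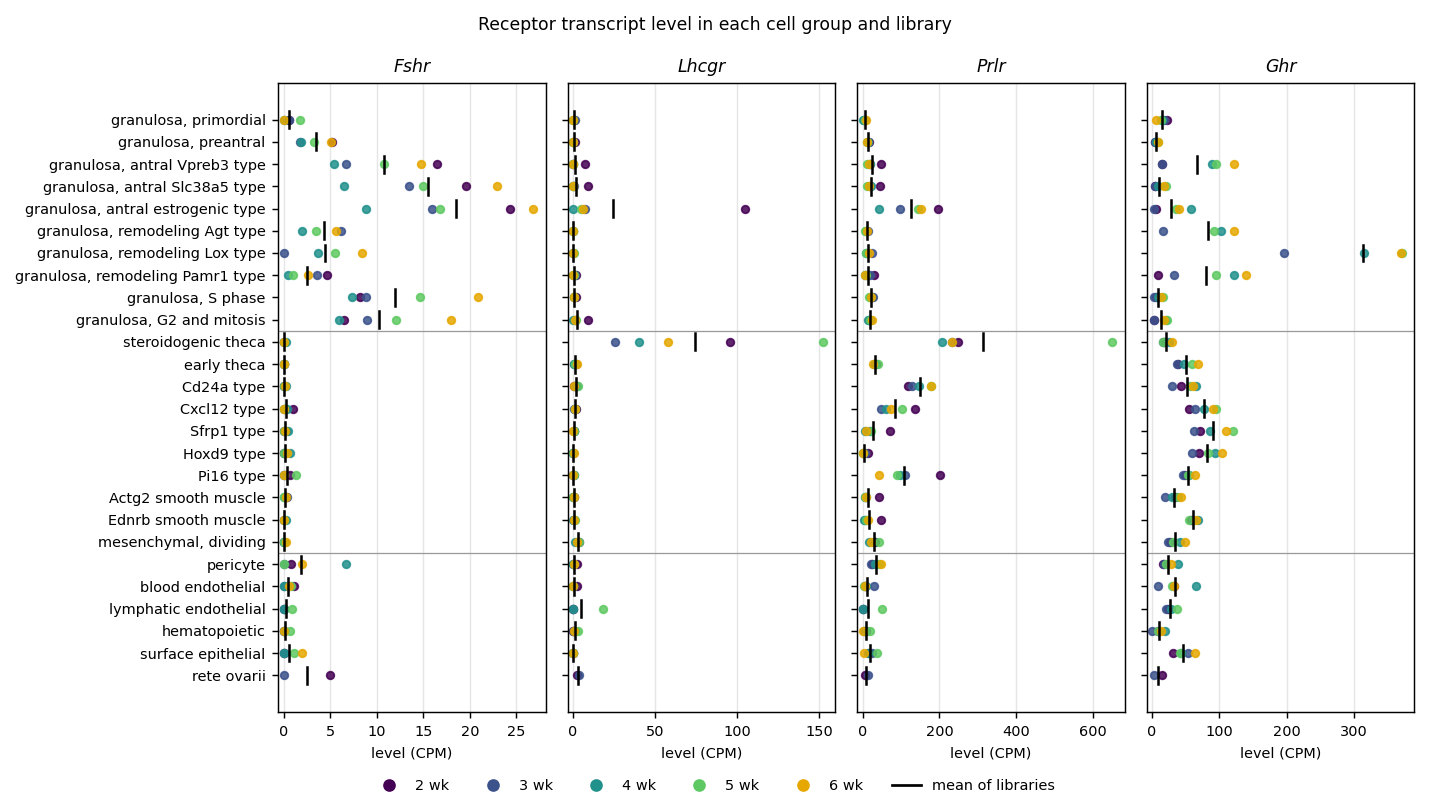
Level of each receptor, in CPM on a linear axis, in the 26 named cell groups; points are the libraries of 2 to 6 wk with at least 20 cells of a group and the tick is their mean. Fshr peaked in antral and cycling granulosa groups, Lhcgr in steroidogenic theca with 1 high point in estrogenic antral granulosa (2 wk), Prlr in steroidogenic theca, and Ghr in the Lox type of remodeling granulosa.

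Fshr was a granulosa gene that was low in primordial granulosa, higher in preantral and highest in antral and cycling granulosa. In the granulosa class its level was 7.09 CPM at 2 wk, 5.71 at 3 wk, 5.10 at 4 wk, 9.07 at 5 wk and 14.6 at 6 wk. In the stromal class the mean was 0.148 ± 0.0663 CPM (SD, n = 5), and in no library did the 2 classes overlap. The edgeR quasi-likelihood fit over summed counts, with the library as a block, gave Fshr a log2 fold change of 5.52 (SE 0.358, adjusted p = 3.21e-16) for granulosa over stromal cells. For Fshr in granulosa over theca cells it gave 3.68 (SE 0.405, adjusted p = 6.57e-10), and 4.76 with doublets left out. These contrasts were broad: 59.1% of all genes tested were called between granulosa and stromal cells and 48.4% between granulosa and theca cells. In the 2216 early theca cells Fshr had 0 UMIs, and in the 1492 steroidogenic theca cells it had 1.

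Along the follicle stages, Fshr had a mean of 0.575 CPM in primordial granulosa, 3.44 ± 1.64 in preantral and 14.6 in antral granulosa. In preantral granulosa it was 5.16, 1.80, 1.87, 3.32 and 5.06 CPM at 2 to 6 wk, and in antral granulosa 19.6, 10.6, 6.52, 14.0 and 22.3. Within every library the antral level was above the preantral one, by 3.79, 5.89, 3.49, 4.21 and 4.41 times. The log2 fold change of Fshr for preantral over antral cells was -2.09 (edgeR, SE 0.199, adjusted p = 2.37e-09), and for primordial over preantral cells -2.77 (SE 0.636, adjusted p = 0.000783). Without integration they were -2.70 and -2.17 for Fshr. All 4 receptors differed between preantral and antral cells, where 47.4% of all genes tested were called. Of the 4 receptors, 3 (all but Lhcgr) differed between primordial and preantral cells (39.2% called).

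Among the antral types, the estrogenic type had the highest Fshr level, 18.5 ± 7.17 CPM, with 24.3, 16.0, 8.81, 16.8 and 26.8 at 2 to 6 wk. The Slc38a5 type followed at 15.5 ± 6.28 and the Vpreb3 type at 10.8 ± 4.82. S phase granulosa cells, at 12 ± 5.74 CPM, and G2 and mitosis cells, at 10.3 ± 4.93, lay near the Vpreb3 type. Neighbours in this order were closer than their spread over libraries, and Fshr in antral over S phase cells gave a log2 fold change of 0.27 (edgeR, SE 0.180, adjusted p = 0.227, where 44.6% of genes were called). That value passed the threshold with finer clustering (0.54, adjusted p = 0.0367) and without integration of the libraries (1.47, adjusted p = 3.97e-05). Antral over G2 and mitosis cells did pass for Fshr in the main fit, at 0.51 (edgeR, SE 0.188, adjusted p = 0.0286). The antral level was the higher one in 5 of 5 libraries. This call was not followed under the alternatives.

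Fshr was lower again in remodeling granulosa. The group held 5.52, 4.06, 2.51, 3.61 and 6.06 CPM at 2 to 6 wk, below the antral level in each library. For antral over remodeling cells the log2 fold change of Fshr was 1.86 (edgeR, SE 0.222, adjusted p = 1.19e-07), and all 4 receptors were called in this contrast, against 41.4% of all genes tested. With coarser clustering the Fshr value was 0.77. Among the remodeling types the mean was 4.4 CPM in the Lox type, 4.30 in the Agt type and 2.48 in the Pamr1 type, the first 2 over the 4 libraries from 3 wk on and the last over 5.

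By age, Fshr in antral granulosa was lowest at 4 wk and highest at 6 wk, with a ratio of 3.42 (95% exact interval 2.81 to 4.21). The same dip was seen in each antral type. Fshr RNA was sparse in single cells, with at most 10 UMIs in a cell. After every cell was thinned to 5000 UMIs, 8.25% (Clopper-Pearson interval 6.84 to 9.85) of estrogenic antral cells had a Fshr UMI, against 0.340% (1 of 294) of hematopoietic cells, which are not known to make this receptor. Without thinning the share was 21.5% in estrogenic cells (median depth 13799 UMIs) and 0.202% in hematopoietic cells (median depth 6692 UMIs). A cell without a Fshr UMI is therefore not a cell shown to lack the receptor.

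Lhcgr was a steroidogenic theca gene. In these cells its level was 95.3 CPM at 2 wk, 25.7 at 3 wk, 40.2 at 4 wk, 152.1 at 5 wk and 57.8 at 6 wk, with up to 20 UMIs in a cell. Early theca cells held 1.93, 0.55, 0.60, 0.88 and 2.28 CPM. No library overlapped between the 2, and steroidogenic theca stood above early theca by 25.3 times (6 wk) to 173 times (5 wk). For steroidogenic over early theca the log2 fold change of Lhcgr was 5.60 (edgeR, SE 0.257, adjusted p = 3.65e-22), and 3.25 in the clusters made without integration. The 3 receptors tested there, Fshr having been too low to test, were all called in this contrast (48.3% of all genes tested). The class comparison gave Lhcgr 5.57 (SE 0.409, adjusted p = 7.09e-14) for theca over stromal cells and -5.83 (SE 0.401, adjusted p = 1.25e-14) for granulosa over theca cells, with -6.50 without the 2 wk library and -6.71 without integration. All 4 receptors were called between theca and stromal cells (44.2% of all genes tested). Fshr was called there from few counts (mean 0.686 CPM in the theca class, 0.148 in the stromal class). Its theca class UMIs lay mostly outside the cells named steroidogenic theca. This Fshr call was not followed under the alternatives, such as leaving doublets out.

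The steroidogenic theca was made of 2 clusters that differed in Lhcgr. Cluster 8 (868 cells) led with Cyp11a1 and Cyp17a1, and cluster 12 (624 cells) with Cpa1 and Aldh1a7. Cluster 8 held 220.7, 36.8, 55.9, 160.6 and 109.4 CPM of Lhcgr at 2 to 6 wk, and cluster 12 held 18.8, 16.8, 21.5, 117.5 and 30.2. Within each library cluster 8 was higher, by 11.8, 2.19, 2.60, 1.37 and 3.62 times. The clusters were set apart after the levels had been seen, so these values carry no test. Cyp17a1, the enzyme that makes androgen from progestin and a marker that named these cells, was also higher in cluster 8 in each library. It was at 2678, 200.5, 703.7, 3485 and 1003 CPM in cluster 8 and at 13.1, 0.481, 50.2, 1476 and 22.3 in cluster 12. By age the 2 genes differed: in cluster 8 Lhcgr was highest at 2 wk and Cyp17a1 at 5 wk. Of the cluster 8 cells, 474 of the 868 came from the 5 wk library, so the pooled steroidogenic theca level at 5 wk leans to this cluster.

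By age, Lhcgr in steroidogenic theca was 5.91 times as high at 5 wk as at 3 wk. The matrices of these ages were made with different versions of the counting software, and the cause of this difference was not tested. After thinning to 5000 UMIs, 28.8% (26.5 to 31.2) of steroidogenic theca cells had a Lhcgr UMI, with 24.7, 11, 15.8, 45 and 25.2% at 2 to 6 wk. No hematopoietic cell of 294 had one, which allows a share of up to 1.02%.

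Lhcgr was also found in granulosa cells, mostly at 2 wk. The estrogenic antral type held 104.8 CPM at 2 wk (203 UMIs, in 57 of 134 cells), then 7.25 at 3 wk, 0 at 4 wk, 4.68 at 5 wk and 5.82 at 6 wk. The 2 wk level was 22.4 times (13.3 to 40.8) that at 5 wk, and its interval (90.9 to 120.2) took in the 95.3 CPM of steroidogenic theca in the same library. After thinning, 23.8% (16.7 to 32.2) of these cells had a Lhcgr UMI at 2 wk, and 0 of 337 at 4 wk. The Vpreb3 and Slc38a5 types showed the same order at a lower level, with 7.06 and 8.84 CPM at 2 wk and no more than 0.612 later. Preantral granulosa held 0.91 CPM at 2 wk and no more than 0.26 later.

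Most of the 2 wk UMIs were in 1 of the 2 clusters of the estrogenic type. Cluster 10, led by Inhba and Cyp11a1, held 132.5 CPM at 2 wk (191 UMIs, in 48 of 96 cells), and cluster 13, led by Frzb, held 24.2. The ratio was 5.47 (3.06 to 10.8). Steroidogenic theca at 2 wk held 10.7 Cyp17a1 UMIs for each Lhcgr UMI, with 12.1 in theca cluster 8 and 0.697 in theca cluster 12. Granulosa cluster 10 at 2 wk held 0.246, below all of these. Over all ages together, 0.239% of its cells were called doublets, and no share is given for 2 wk alone. The origin of its Lhcgr UMIs at 2 wk was not tested. At 5 wk the few Lhcgr UMIs of cluster 10 came with 4.75 Cyp17a1 UMIs each, and at 6 wk with 0.776.

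For antral over remodeling cells the log2 fold change of Lhcgr was 3.55 (edgeR, SE 0.598, adjusted p = 2.17e-05), and for preantral over antral cells -4.42 (SE 0.522, adjusted p = 1.04e-07). In each, 1 library of 5 went the other way, the 4 wk library, where antral cells had 0 UMIs. Without the 2 wk library preantral over antral was -3.31 for Lhcgr, and with coarser clustering -5.14. Antral over remodeling was 5.16 for Lhcgr without the block, 2.57 with finer clustering and 2.55 with the receptors kept among the clustering genes. Granulosa and stromal cells did not differ past the threshold in Lhcgr (-0.26, SE 0.391, adjusted p = 0.643). Within libraries the granulosa class was 4.04 times (3.11 to 5.33) the stromal class at 2 wk, and 0.73, 0.109, 0.562 and 0.764 times at 3 to 6 wk. Without the 2 wk library the log2 fold change was -1.10 (adjusted p = 0.00695), and in the clusters made without integration -1.57 (adjusted p = 2.91e-05).

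**Figure D2:**
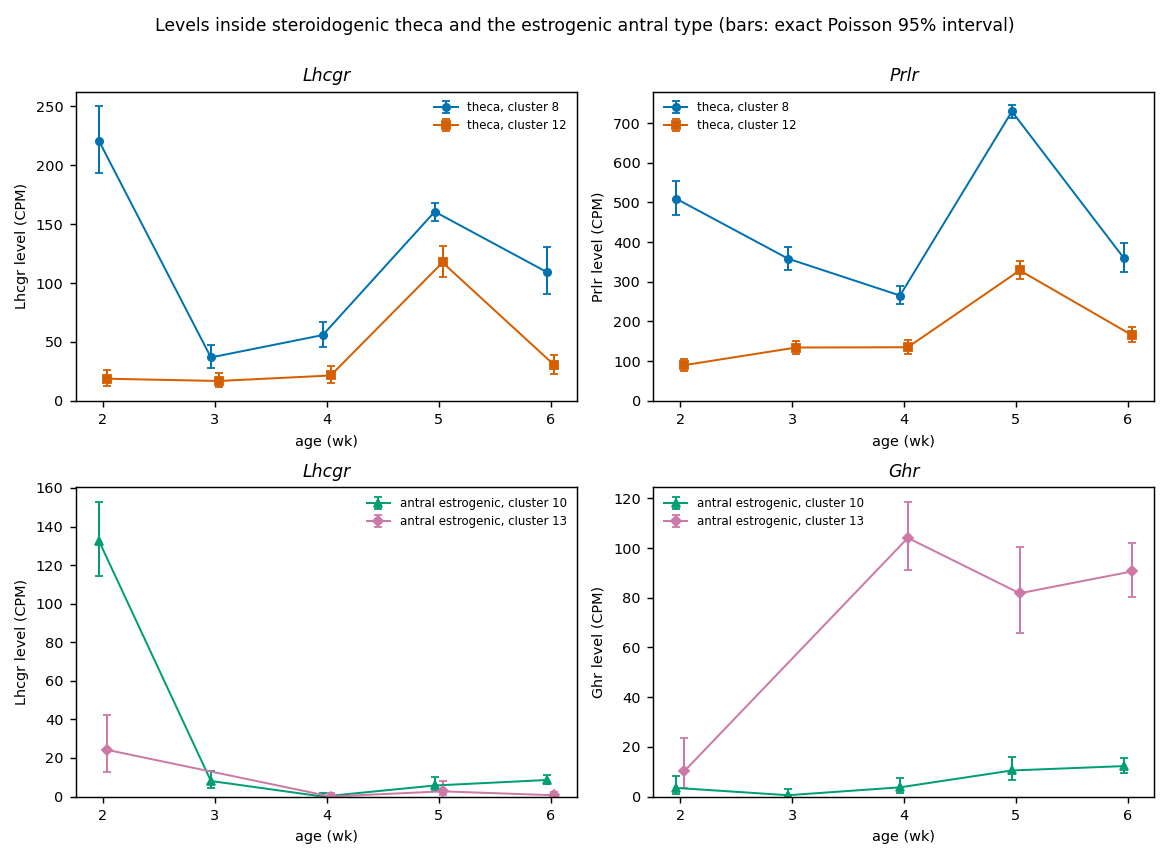
Receptor levels (CPM) by age in the 2 clusters of steroidogenic theca (Lhcgr and Prlr) and of estrogenic antral granulosa (Lhcgr and Ghr); each point is 1 library with its exact Poisson interval, and cluster 13 has no 3 wk point because it held under 20 cells. Theca cluster 8 was above cluster 12 at every age, Lhcgr in granulosa cluster 10 was high at 2 wk (132.5), and Ghr was higher in cluster 13 from 4 wk.

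Prlr reached more cell types than Lhcgr, but its highest level was also in steroidogenic theca. There it was at 248.8, 233.6, 206.0, 649.8 and 233.6 CPM at 2 to 6 wk, with up to 85 UMIs in a cell. The other 4 libraries lay close together and the 5 wk library was 3.15 times the 4 wk one. The matrices of 4 and 5 wk were made with different versions of the counting software, and the cause of this difference was not tested. Early theca held 34.3, 32.7, 30.2, 38.9 and 28.0 CPM, with no overlap. For steroidogenic over early theca the log2 fold change of Prlr was 3.21 (edgeR, SE 0.352, adjusted p = 2.92e-10), with 2.21 without integration, and for theca over stromal cells 2.41 (SE 0.361, adjusted p = 5.36e-07). Granulosa cells were below both, with -3.78 (SE 0.383, adjusted p = 7.94e-11) against theca and -1.37 (SE 0.349, adjusted p = 0.00126) against stromal cells.

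The 2 theca clusters differed in Prlr as they did in Lhcgr. Cluster 8 held 509.3, 358.2, 265.3, 729.2 and 359.9 CPM and cluster 12 held 89.8, 134.3, 135.0, 328.7 and 166.1, which gave ratios of 1.97 (4 wk) to 5.67 (2 wk). After thinning, 65.4% of steroidogenic theca cells had a Prlr UMI, and 89.4% of those at 5 wk, against 2.38% of hematopoietic cells.

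The Cd24a stromal type, which carries Ramp3 and Col15a1, was second in Prlr with 118.0, 128.8, 147.8, 178.1 and 178.8 CPM at 2 to 6 wk. Its range did not meet that of early theca, and the log2 fold change of Prlr for early theca over the Cd24a type was -2.26 (edgeR, SE 0.346, adjusted p = 5.95e-07), in a contrast where 28.2% of genes were called and 1 of the 3 receptors tested. Without integration, cells were sorted into the types differently and this value was -0.47 (adjusted p = 0.202). Steroidogenic theca was above the Cd24a type in each library, by 1.31 to 3.65 times, with a log2 fold change of 0.95 (SE 0.320, adjusted p = 0.0137, where 50% of genes and all 3 receptors tested were called). That call was lost without the 5 wk library (0.61, adjusted p = 0.131), without the 3 wk library (0.97, adjusted p = 0.0502), in DESeq2 (adjusted p = 0.0700) and without the block (adjusted p = 0.101). Without integration the Prlr value was 1.74.

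The Cxcl12 stromal type held 137.0, 48.4, 60.5, 103.0 and 74.4 CPM of Prlr. The Cd24a type was higher in 4 of 5 libraries and lower at 2 wk, where the ratio was 0.861 (0.761 to 0.975), and the log2 fold change was 0.96 (edgeR, SE 0.333, adjusted p = 0.0172, with 38.8% of genes and 2 of the 3 receptors tested called). The call was lost without the 3 wk (0.88, adjusted p = 0.0863), 4 wk (0.91, adjusted p = 0.0754) or 6 wk library (0.86, adjusted p = 0.0861), and the difference was 0.0046 without integration.

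In several mesenchymal groups Prlr was highest at 2 wk. The Pi16 type, adventitial-like fibroblasts, held 200.2, 110.6, 97.3, 89.5 and 43.4 CPM. The Sfrp1 type held 70.9, 19.0, 7.17, 22.6 and 9.45, a ratio of 7.5 (5.70 to 10.0) between 2 and 6 wk. Actg2 smooth muscle held 42.4, 7.40, 9.38, 6.59 and 8.78, and Ednrb smooth muscle 48.4, 6.72, 4.19, 7.81 and 13.7. The Hoxd9 type had the lowest mean of all groups, 4.68 CPM. Early theca, pericytes (22.2 to 48.8 CPM) and the Cd24a type did not share this order by age. Hematopoietic cells, given for comparison, held 9.85 CPM at 2 wk, from 6 UMIs. Whether this was free RNA or RNA of their own was not tested.

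In granulosa cells Prlr was low in primordial granulosa, higher in preantral granulosa and highest in 1 antral type, the estrogenic one. Its mean was 5.41 CPM in primordial granulosa, 13.5 ± 2.11 in preantral granulosa and 126 ± 58.2 in the estrogenic antral type, whose libraries held 195.1, 97.7, 42.8, 144.6 and 152.1. The Vpreb3 type (48.7, 20.6, 20.6, 11.8 and 16.5) and the Slc38a5 type (46.1, 18.4, 21.5, 11.7 and 17.5) lay far below the estrogenic type and on top of each other. From 3 wk on these 2 types, at 11.7 to 21.5 CPM, lay near the preantral mean of 13.5. The antral group in the contrasts that follow joins all 3 types. For preantral over antral cells the log2 fold change of Prlr was -2.14 (edgeR, SE 0.210, adjusted p = 4.24e-09), for primordial over preantral -1.69 (SE 0.432, adjusted p = 0.00215) and for antral over remodeling 2.18 (SE 0.233, adjusted p = 1.98e-08). The direction held in 5 of 5 libraries for each of the 3. Antral over remodeling was 0.97 for Prlr with the receptors kept among the clustering genes, 1.14 with finer and 1.54 with coarser clustering, and 2.81 without integration.

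Ghr differed from the other receptors in that remodeling granulosa held the most. The Lox type, which carries the matrix genes Lox and Adamts5, held 195.8, 314.9, 371.5 and 369.4 CPM at 3 to 6 wk. At 2 wk it had 4 cells and no level is given. This type took 18.0% of all Ghr UMIs with 1177 of the 48163 cells. After thinning, 74.2% (71.5 to 76.7) of its cells had a Ghr UMI, against 4.42% of hematopoietic cells. The next groups lay together far below it: the Sfrp1 type at 90.1 ± 24.4 CPM, the Agt type of remodeling granulosa at 83.2 ± 46.2 (n = 4), the Hoxd9 type at 82.1 ± 18.1, the Pamr1 type at 79.5 ± 56.7 and the Cxcl12 type at 76.5 ± 17.3. They did not differ beyond their spread.

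The lowest mean of all 26 groups was in preantral granulosa, with 4.22, 4.27, 6.31, 8.57 and 8.59 CPM. A fit of the granulosa types was added after the levels had been seen. There the log2 fold change of Ghr for preantral cells over the Lox type was -5.22 (edgeR, SE 0.313), and 48.2% of genes were called. This pair holds the lowest and the highest mean of the 26 groups, so the value carries no test. For antral over remodeling cells the planned fit gave Ghr -1.73 (SE 0.304, adjusted p = 3.78e-05) and for preantral over antral cells -2.33 (SE 0.346, adjusted p = 3.83e-06). Antral over remodeling was -3.73 for Ghr with coarser clustering and -3.66 without integration, which gave -1.33 for preantral over antral. In the 2 wk library antral and remodeling cells did not differ (ratio 1.15, 0.597 to 2.42). With coarser clustering the Vpreb3 type was not named antral, and Ghr for preantral over antral cells then read 0.60 (adjusted p = 0.223). Primordial granulosa was above preantral granulosa in 4 of 5 libraries, with 22.0, 17.2, 14.2, 12.6 and 5.46 CPM and a log2 fold change of 1.72 (SE 0.502, adjusted p = 0.0063). The call was lost without the 2 wk library (1.09, adjusted p = 0.0851) and without the block (1.25, adjusted p = 0.223).

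The Vpreb3 and Slc38a5 antral types were set apart by Ghr. The Vpreb3 type held 15.1, 14.6, 88.4, 95.1 and 121.7 CPM at 2 to 6 wk and the Slc38a5 type 3.93, 4.28, 8.19, 20.5 and 17.9. The Vpreb3 type was higher in every library, with a log2 fold change of 2.58 for Ghr in the added fit (edgeR, SE 0.336). This pair was also read after its levels had been seen, so the value carries no test. In the same contrast Fshr (-0.48), Lhcgr and Prlr did not pass the threshold, and 28.6% of genes were called. Within the estrogenic type the Ghr UMIs lay in cluster 13, with 10.1 CPM at 2 wk and 104.1, 81.8 and 90.6 at 4 to 6 wk, while cluster 10 held 3.47, 0.54, 3.71, 10.5 and 12.3. Cluster 10 thus held the most Lhcgr at 2 wk, and cluster 13 the most Ghr from 4 wk on. The main differences in these 2 receptors lay in different libraries.

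Ghr in the granulosa class as a whole stood at 2 levels by age. The granulosa class held 6.56 and 6.97 CPM at 2 and 3 wk, and 65.3, 62.8 and 61.8 at 4, 5 and 6 wk. In antral granulosa the 4 wk level was 5.33 times (4.10 to 7.06) the 2 wk level, and in remodeling granulosa 21.9 times (12.2 to 44.0). Not every granulosa group rose in this way: primordial granulosa fell with age, and preantral granulosa stayed low at all ages. The step lay between 3 and 4 wk, and its cause was not tested. Groups took different shares of the class at the 2 ages: the Lox type had 21 cells at 3 wk and 597 at 4 wk. With coarser clustering the antral ratio was 1.77, and without integration 1.29. The stromal class showed a smaller range, 47.8, 43.2, 61.5, 69.0 and 78.5 CPM. Steroidogenic theca was low throughout, at 18.4, 15.8, 25.0, 15.7 and 29.4 CPM, below early theca in every library, with a log2 fold change of -1.33 for Ghr (edgeR, SE 0.134, adjusted p = 2.72e-11) and of -1.36 against the Cd24a type (SE 0.136, adjusted p = 2.9e-11). For theca over stromal cells it was -1.72 (SE 0.324, adjusted p = 2.74e-05).

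The step by age also moved the class contrasts of Ghr. Granulosa over theca was 0.625 and 0.506 times at 2 and 3 wk and 2.41, 4.07 and 1.77 times at 4 to 6 wk, and the log2 fold change of 0.70 did not pass the threshold (edgeR, SE 0.322, adjusted p = 0.0770). Without the 2 wk library it did (0.94, adjusted p = 0.0169), as it did without the 3 wk library (1.01, adjusted p = 0.0129). For granulosa over stromal cells the log2 fold change was -1.02 (SE 0.294, adjusted p = 0.00412). It lost its call without the 2 wk (-0.69, adjusted p = 0.0532) or the 3 wk library (-0.71, adjusted p = 0.0592) and without the block (-0.72, adjusted p = 0.166).

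**Figure D3:**
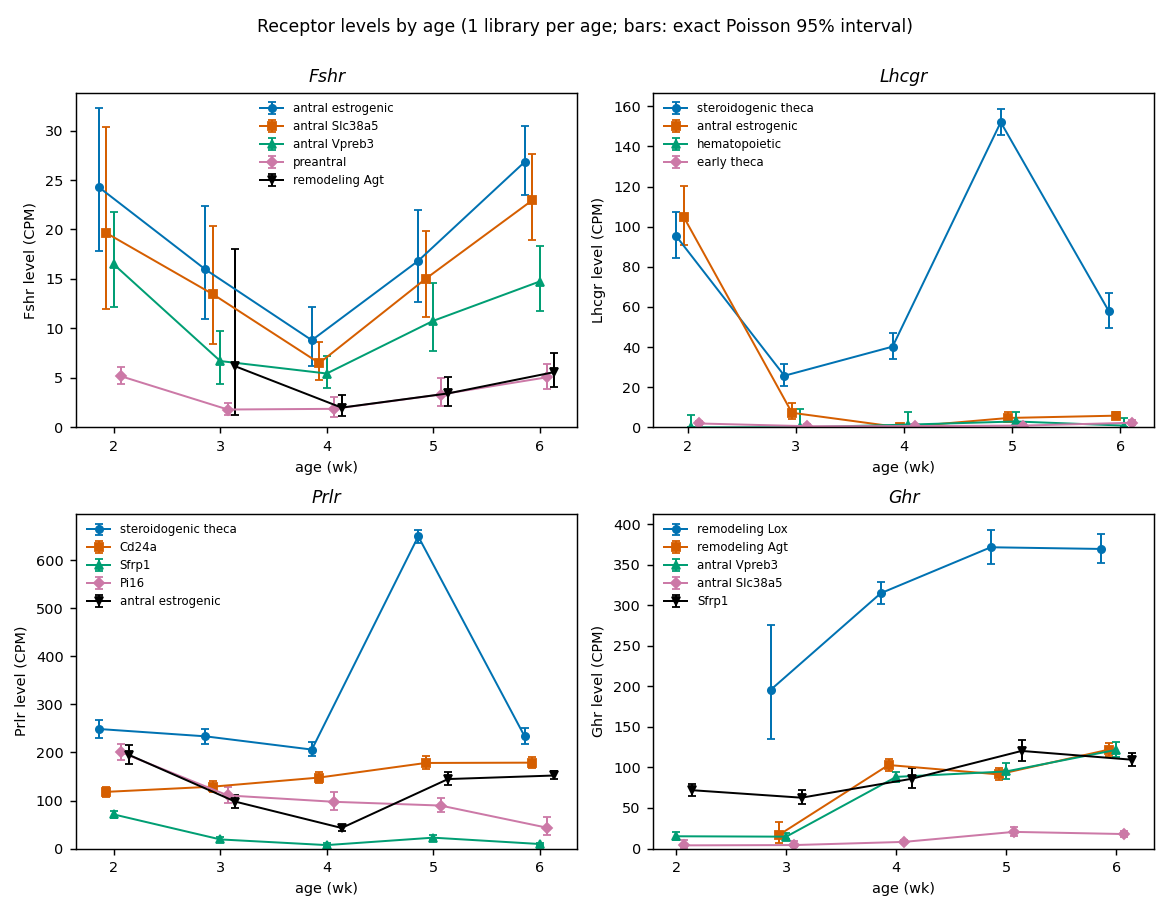
Level of each receptor (CPM) by age in weeks, 1 panel per receptor, for selected cell groups; each point is 1 library and bars are exact Poisson intervals, which cover counting error only. Fshr in antral granulosa was lowest at 4 wk, Lhcgr and Prlr in steroidogenic theca were highest at 5 wk, and Ghr in some granulosa groups was higher from 4 wk.

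Cell types outside the follicle and its stroma also held Ghr. Blood endothelial cells held 34.0 ± 20.2 CPM of Ghr, above hematopoietic cells (mean 9.97) in 5 of 5 libraries. Their Prlr, at 10.9 ± 11.3 CPM, was near that of hematopoietic cells (mean 7.83) and higher in 3 of 5 libraries. Surface epithelial cells held 46.6 ± 12.3 CPM of Ghr, above the theca class in 5 of 5 libraries (mean 20.4), and 0 UMIs of Lhcgr in 321 cells. Lymphatic endothelial cells showed 18.2 CPM of Lhcgr at 5 wk, but this was 19 UMIs in 2 of 81 cells, with 18.0 Cyp17a1 UMIs for each. That ratio is near the 20.3 of steroidogenic theca in the same library, and the origin of these UMIs was not tested. Hematopoietic cells at 5 wk held 4 Lhcgr UMIs with 34.5 Cyp17a1 UMIs each. The whole series had few UMIs of the ligands: 47 of Lhb, 58 of Cga, 1 of Prl, and 0 of Fshb and of Gh, which the pituitary makes.

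The genes that act below these receptors were read as lists. Genes known to respond to FSH and to LH overlap the markers that named the groups (Cyp19a1, Inhba, Hsd17b1, Fst, Inha and Nr5a2, and Cyp17a1, Cyp11a1, Star and Insl3), so their counts describe the groups and support nothing. Of 8 FSH response genes tested, 7 were higher in antral than in preantral cells, among them Inhba, an activin subunit, at a log2 fold change of -6.07 for preantral over antral, and Cyp19a1 (aromatase) at -3.54. Over all genes, 23.1% were higher and 24.4% lower in preantral than in antral cells. Ccnd2 (cyclin D2) went the other way, at 0.61. Of 7 theca LH response genes tested, 7 were higher in steroidogenic than in early theca, where 22.8% of all genes were higher, such as Cyp17a1 (11.18) and Star (3.54), the carrier of cholesterol into mitochondria.

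Genes of cyclic AMP signalling, which follow FSHR and LHCGR, did not go one way. Of 20 tested for steroidogenic over early theca, 3 were higher and 8 lower, with a median log2 fold change of -0.31 against -0.0079 over all genes, of which 22.8% were higher and 25.5% lower. The regulatory subunit Prkar2b was higher (1.91), as was the adenylyl cyclase Adcy9 (1.04), while the phosphodiesterases Pde4b (-2.50) and Pde4d (-1.06), which break cyclic AMP down, and the cyclase Adcy7 (-1.99) were lower. For preantral over antral cells 1 of 18 was higher and 5 lower (23.1 and 24.4% of all genes), with Pde7b at -1.87, Prkar2b at -1.46 and Rapgef4 at -1.17. Prkar2b was thus higher in both of the groups that held the gonadotropin receptors.

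Genes of JAK-STAT signalling, which follows PRLR and GHR, did not go one way with Prlr. For early theca over the Cd24a type, where Prlr was lower, 1 of 16 was higher and 11 lower (28.2% of all genes were called). Their median was -0.51 against 0.010 over all genes. For steroidogenic over early theca, where Prlr was higher, 3 were higher and 5 lower (22.8 and 25.5% of all genes). For steroidogenic theca over the Cd24a type, 1 of 16 was higher and 11 lower, with a median of -0.57 against 0.015 over all genes, of which 25.1% were higher and 24.9% lower. Jak1 was at -1.90, Irs2 at -1.95 and the feedback inhibitor Socs3 at -1.22, and Grb2 was higher (0.36). The kinase Jak2 (-0.08, adjusted p = 0.717 in edgeR) and Stat5b (0.18, adjusted p = 0.252) did not pass the threshold. For antral over remodeling cells 2 were higher and 7 lower (20.1 and 21.2% of all genes): Socs2, a feedback inhibitor of growth hormone signalling, was higher in antral cells (1.23), and Cish, another STAT5 target, was lower (-1.75). The mean Socs2 level was 783.3 CPM in the estrogenic type and 163.6 in the Lox type, which held the most Ghr.

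Igf1, the main product of growth hormone action, went opposite to Ghr between antral and remodeling cells. Of 4 growth hormone response genes tested for antral over remodeling cells, Igf1 (1.01) and Socs2 were higher and Igf1r (-0.27) and Cish lower (20.1 and 21.2% of all genes). Between steroidogenic theca and the Cd24a type Igf1 was lower in theca (-2.41), as was Ghr. Of 4 prolactin response genes tested in that contrast, Hsd17b7 (1.68) and Cdkn1b (0.75) were higher in theca, and Esr2 was lower (-1.64). Over all genes, 25.1% were higher and 24.9% lower there. Relatives of the receptors were also read: 6 of 7 tested were lower in antral than in remodeling cells, as were 21.2% of all genes, among them the leucine-rich repeat receptor Lgr6 (-2.18) and the cytokine receptors Osmr (-3.80) and Il6st (-0.70), while Lifr (-0.03) did not pass the threshold. Genes of the ovulatory response to LH were the last list. Of 7 tested for steroidogenic over early theca, 0 were higher and 3 lower (22.8 and 25.5% of all genes). The 3 were the prostaglandin synthase Ptgs2 (-1.96), Ereg, an EGF-like ligand (-1.46), and the protease Adamts1 (-1.65). For steroidogenic theca over the Cd24a type 0 of 7 were higher and 5 lower (25.1 and 24.9% of all genes). Has2, a hyaluronan synthase, was at -6.05 and Ptgs2 at -3.91. The counts of these lists in the other contrasts are not given.

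Detection in single cells was compared after thinning to 5000 UMIs. Over all cells before thinning, 26675 (55.4%) had no UMI of the 4 receptors, 2515 had Prlr and Ghr alone, 716 Lhcgr and Prlr alone, 512 Fshr and Prlr alone, 452 Fshr and Ghr alone, and 13 had all 4. Cells of 1 library are not replicates, so the values are described with no test. The expected share is the one that independence within each library would give.

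Lhcgr and Prlr were found together in theca cells more often than expected. Of 412 steroidogenic theca cells with Lhcgr, 335 had Prlr, 81.3% (77.2 to 85) against 71.8% expected. Within cluster 8 alone the share was 86.8% (82.6 to 90.3) against 85%, and within cluster 12 it was 60.9% (49.9 to 71.2) against 49.9%. The excess over the expected share was thus smaller within cluster 8 than in the pooled cells, but not within cluster 12. Within each cluster the interval reached down to the expected share. Whether the pooled excess holds within a cluster was not tested. The same pair was found in granulosa cells: of 56 estrogenic antral cells with Lhcgr, 34 had Prlr, 60.7% (46.8 to 73.5) against 39.0% expected, and all 34 were in cluster 10. That expected share is of the whole estrogenic type. Both receptors were among the leading genes of cluster 10, and no expected share within it is given.

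Lhcgr and Fshr met in few cells. Of 67 antral cells with Lhcgr in the libraries where it was found, 12 had Fshr, 17.9% (9.61 to 29.2) against 7.02% expected. Within cluster 10 it was 7 of 52, 13.5% (5.59 to 25.8) against 9.06%.

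Several pairs with Ghr lay below the expected share. Of 647 antral cells with Ghr, 77 had Prlr, 11.9% (9.51 to 14.6) against 18.5% expected, and in the Vpreb3 type 25 of 415, 6.02% against 9.44%. In steroidogenic theca 29 of 412 cells with Lhcgr had Ghr, 7.04% (4.76 to 9.95) against 10.5%. In the Sfrp1 type 32 of 136 cells with Prlr had Ghr, 23.5% (16.7 to 31.6) against 34.4%. In the Cd24a type the observed and expected shares were equal, 22.9% against 22.9%.

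Across the 26 groups, likeness to a receptor was measured as Pearson's r of log2(CPM + 1), among genes with at least 500 UMIs. The groups share libraries and cells of like origin, so r is a description. The gene most like Fshr was Tnks (r = 0.94), followed by Klc2, Hsd17b1, Dym and Tex15, and 4 of these 5 peaked in estrogenic antral granulosa. Lhcgr was most like Fdx1 (0.87), the electron donor of the mitochondrial steroid enzymes, Cyp11a1, Serpina5, Cyp17a1 and Bpifb4, all highest in steroidogenic theca. Prlr was most like Rtl4 (0.84), Trpc5, Ms4a10, Fam161a and Dnajc21, and Ghr like Polr3gl (0.84), Csgalnact2, Setd7 and Arl5a. Among the receptors, Lhcgr and Prlr were the pair most alike (r = 0.62, Spearman's rho 0.40), and the other pairs lay between -0.28 and 0.13.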

How the data were processed

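Single-cell RNA was measured in 5 libraries, 1 per age, per the labels. The deposited matrices hold raw UMI counts per gene and cell, filtered to cells by the authors and not normalized. Cell Ranger 3.1.0 (2, 3 and 4 wk) or 6.0.1 (5 and 6 wk) made them per the file headers, and the submitters' notes name Cell Ranger 3.1.0, Seurat 4.1.0 and mm10. Total UMIs were 93438618 to 144609431 per library. No column was left unused.

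All deposited cells were kept. Scrublet (scanpy 1.11.5) called 162 to 555 doublets per library. Of the barcodes, 47617 occurred in 1 library and 273 in 2. Libraries were integrated by anchors in Seurat 5.3.0, on 2000 variable genes without the 4 receptors, with 30 principal components, 20 neighbours and resolution 1, and granulosa and mesenchymal cells were clustered again in the same way. A cluster was named from at least 3 detected markers. Clusters of low UMIs, of few cells, of leading genes of another class, with at least 50% doublets, or with over 90% of cells from 1 library stayed unnamed. Primary and secondary granulosa had been planned apart but could not be separated by their markers and were joined as preantral.

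Counts of cell groups with at least 20 cells in a library were summed and tested with edgeR 4.0.16 (quasi-likelihood F test, TMM, filterByExpr, library as block), with Benjamini-Hochberg adjustment over all genes and group pairs of a fit and a threshold of 0.05. Fshr did not pass the filter among mesenchymal types. Ages were not tested: CPM have exact Poisson, ratios exact conditional and shares Clopper-Pearson 95% intervals, which cover counting error only. A count of 0 allows up to 3 counts. For shares, cells were thinned to 5000 UMIs, and 19.7 to 27.1% of cells per library were shallower and left out. On simulated counts, 67% (classes), 63% (granulosa) and 85% (mesenchymal) of 100 genes changed 2-fold were recovered, and 90, 96 and 99% of those changed 4-fold.

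Alternatives were DESeq2 1.42.0, other scalings, no filter, no block, other resolutions, no integration, stricter cells (at least 1000 genes, under 10% mitochondrial UMIs), no doublets, other thinning and leaving out each library. Fits of granulosa types and of theca clusters were added after the levels were seen. The receptors, gene lists and tests were chosen with earlier results of these data known. Named genes are the 4 receptors, the genes of the lists, group markers, and the 5 genes most like each receptor. Some genes that this rule names are not reported here.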

Additional observations from a re-analysis of the deposited data

Results flagged for a closer look

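Some contrasts changed side between libraries. With 1 library per age the difference between ages was not tested, and age and library cannot be told apart. Lhcgr in granulosa over stromal cells was 4.04 times at 2 wk and 0.730, 0.109, 0.562 and 0.764 times at 3, 4, 5 and 6 wk. Ghr in granulosa over theca cells was 0.625 and 0.506 times at 2 and 3 wk and 2.41, 4.07 and 1.77 times at 4, 5 and 6 wk. Prlr in the Cd24a type over the Cxcl12 type was 0.861 times at 2 wk and 2.66, 2.44, 1.73 and 2.40 times later. Ghr in theca cluster 8 over cluster 12 was 0.298, 1.13, 1.30, 0.858 and 1.68 times at 2 to 6 wk.

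Clusters that were left unnamed held receptor UMIs above the level of hematopoietic cells. Cluster 5 of the first clustering (2728 cells, low UMIs) held 5.23 CPM of Fshr, 29.7 of Prlr and 89.3 of Ghr. Cluster 12 (1647 cells, low UMIs, with Hsd17b1 and Inhba among its leading genes) held 10.3 CPM of Fshr, 20.1 of Prlr and 22.7 of Ghr. Cluster 14 (1477 cells, low UMIs) held 64.6 CPM of Prlr and 85.8 of Ghr. Cluster 15 (1456 cells, of which 51.2% were called doublets) held 4.76 CPM of Fshr, 40.2 of Prlr and 58.7 of Ghr. Cluster 25 (451 cells, low UMIs) held 11 CPM of Fshr and 23.9 of Prlr. Cluster 30 (46 cells, 95.7% from 5 wk, led by Hao2, Cyp11a1 and Star) held 70.4 CPM of Lhcgr, from 3 UMIs, and 93.8 of Prlr. Cluster 31 (19 cells) held 8.82 CPM of Fshr.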

How the results depend on the processing

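No paired analysis was possible because each age has 1 library, as far as ages go. Cell groups were compared within libraries, with the library as a block. For 30 planned log2 fold changes of the receptors, 135 of 146 values kept their call when a library was left out, and 317 of 330 under the other alternatives. A change of direction was counted only where the main or the alternative value passed the threshold. Lhcgr granulosa over stromal, at -0.26 without a call, reached 0.19 with a library left out and was counted as kept. Alternatives were not run for the added fits and the list genes. Leaving out a library gave -4.70 to -3.31 for Lhcgr preantral over antral, -1.10 to 0.19 for Lhcgr granulosa over stromal, 0.32 to 1.01 for Ghr granulosa over theca, -1.28 to -0.69 for Ghr granulosa over stromal, 1.09 to 1.90 for Ghr primordial over preantral, 0.61 to 1.12 for Prlr steroidogenic theca over Cd24a and 0.86 to 1.15 for Prlr Cd24a over Cxcl12. Without the library block 4 calls were lost: Ghr granulosa over stromal (-0.72), Ghr primordial over preantral (1.25), Prlr steroidogenic theca over Cd24a (1.06) and Prlr Cd24a over Cxcl12 (0.81). DESeq2 gave 0.93 for Prlr steroidogenic theca over Cd24a. Ghr granulosa over theca passed with total counts (0.83) and stricter cells (0.81). At resolution 0.6 Ghr preantral over antral turned to 0.60, where the Vpreb3 type was not named antral. Fshr antral over S phase passed at resolution 1.4 (0.54) and without integration (1.47), which also gave -1.57 for Lhcgr granulosa over stromal, -0.47 for Prlr early theca over Cd24a and 0.0046 for Prlr Cd24a over Cxcl12. The cause of these changes was not tested.

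Ratios between ages moved without integration to 3.85 (Lhcgr theca, 5 over 3 wk), 1.60 (Prlr theca, 5 over 4 wk) and 1.29 (Ghr antral, 4 over 2 wk). At resolution 0.6 they were 1.77 (Ghr antral), 10.3 (Ghr remodeling, 4 over 2 wk), 4.27 (Fshr antral, 6 over 4 wk) and 5.23 (Prlr Sfrp1 type, 2 over 6 wk, 5.01 at resolution 1.4). Prlr theca was 2.69 with stricter cells, and Prlr in Actg2 smooth muscle, 2 over 6 wk, was 3.26 as a mean over cells. Shares depend on depth: thinned to 2000 UMIs and not thinned, they were 3.31 and 21.5% (Fshr, estrogenic), 13.9 and 51.5% (Lhcgr, theca), 45.2 and 78.1% (Prlr, theca), 47.6 and 89.9% (Ghr, Lox type) and 22.3 and 56.3% (Prlr, Cd24a type). Without thinning, cells with 1 receptor exceeded cells without by 16.1 points (Prlr with Lhcgr, theca), 3.35 (Fshr with Ghr, Vpreb3 type) and 3.77 (Ghr with Prlr, Cd24a type). Fshr and Lhcgr counts outside their main groups are few, which limits the order of those groups.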

Other observations

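Pairs of receptors not described above were found together in single cells at shares whose intervals held the expected share. In the estrogenic antral type 41 of 111 cells with Fshr had Prlr, 36.9% (28.0 to 46.6) against 36.8% expected within libraries, and 15 of 111 had Ghr, 13.5% against 13.7%. In the Lox type of remodeling granulosa 37 of 48 cells with Prlr had Ghr, 77.1% (62.7 to 88.0) against 74.3%, and 18 of 845 cells with Ghr had Fshr, 2.13% against 2.44%. In steroidogenic theca 92 of 141 cells with Ghr had Prlr, 65.2% (56.8 to 73.1) against 62.3%.

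Dividing mesenchymal cells held 2.76 ± 1.09 CPM of Lhcgr (SD, n = 5), above early theca (1.25 ± 0.802, log2 fold change of early theca over dividing cells -0.95 in edgeR, adjusted p = 0.0270), with 28.4 ± 9.67 CPM of Prlr and 34.3 ± 10.3 of Ghr. Pericytes held 22.2 to 48.8 CPM of Prlr, with the lowest value at 3 wk and the highest at 6 wk. In G2 and mitosis granulosa Lhcgr averaged 2.63 ± 3.52 CPM. Rete ovarii cells, with at least 20 cells in 2 libraries, held 9.83 CPM of Prlr and 9.15 of Ghr. Hematopoietic cells of the same libraries held 6.19 and 4.10.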
